A study of Mus musculus with 12 samples.

Results

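Transcripts of 10 genes that make glucose in the liver or carry the insulin signal were followed in livers of mice without CCR1, a receptor for inflammatory chemokines, and in livers of wild-type (WT) mice. The genes were Pcx, Pck1, Fbp1, G6pc, Slc37a4, Insr, Irs1, Irs2, Foxo1 and Trib1. They were chosen by name for their roles, with earlier results of these data known. Each symbol had 1 row among the 27912 genes of the deposited table. All 10 passed the filter on low counts, as did 17729 genes in all. The CCR1-KO group was 3 livers (replicates 65, 66 and 67) and the WT group was 3 livers (replicates 62, 63 and 64). Each library is called a liver here, although the labels do not say that the replicates are separate animals. All 6 livers came from male C57BL/6 mice on the CL diet, which is high in fat and cholesterol and holds cholate. The design text gives an age of 8 weeks at the start and 12 weeks of feeding. The labels do not say how the knockout line was bred, and feeding state and time of day at sacrifice are not given in the sources used here. A second set of 6 libraries with WT and CCR1-LKO livers on the CL diet was not analysed here. The 12 samples of the series hold no library named as chow-fed.

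The liver makes glucose from lactate, pyruvate, glycerol and amino acids. Pyruvate carboxylase (Pcx) and phosphoenolpyruvate carboxykinase (Pck1) carry pyruvate past the irreversible step of glycolysis, fructose bisphosphatase (Fbp1) acts midway, and glucose-6-phosphatase (G6pc) with the glucose-6-phosphate transporter (Slc37a4) releases free glucose in the endoplasmic reticulum. Insulin binds its receptor (Insr), which phosphorylates the adaptors IRS1 and IRS2; these recruit PI3-kinase and lead to AKT, which keeps the transcription factor FOXO1 out of the nucleus. In the fasted liver FOXO1 enters the nucleus and raises Pck1, G6pc, Irs2 and Igfbp1, while glucagon, through cAMP, and glucocorticoids raise Pck1 as well. Trib1 encodes a pseudokinase that brings C/EBPα to the ubiquitin ligase COP1 and limits hepatic fat synthesis.

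The bases just before the transcription start are shown for the gene that differed by the smallest p (Pck1), for the 2 adaptors, which are read side by side throughout (Irs1 and Irs2), and for Igfbp1, the insulin-repressed gene with the largest fold change. Each is 180 bases long and ends at the base before the RefSeq start, in the direction of transcription; the build is GRCm38.p6. Capitals mark the letters TGACG (the core of cAMP response elements), CAAAACA (the core of insulin response elements) and CACGTG (an E-box), or the same letters on the opposite strand. Pck1 lies at chr2:173152893-173153072 (+), Irs1 at chr1:82291440-82291619 (-), Irs2 at chr8:11008930-11009109 (-) and Igfbp1 at chr11:7197607-7197786 (+).
Pck1: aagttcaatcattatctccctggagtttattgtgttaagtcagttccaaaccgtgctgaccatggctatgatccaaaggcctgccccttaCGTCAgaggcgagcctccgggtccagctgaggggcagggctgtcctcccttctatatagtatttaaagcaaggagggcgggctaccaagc
Irs1: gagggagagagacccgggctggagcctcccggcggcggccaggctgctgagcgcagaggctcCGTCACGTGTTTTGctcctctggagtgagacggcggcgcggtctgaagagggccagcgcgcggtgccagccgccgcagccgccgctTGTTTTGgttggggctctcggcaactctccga
Irs2: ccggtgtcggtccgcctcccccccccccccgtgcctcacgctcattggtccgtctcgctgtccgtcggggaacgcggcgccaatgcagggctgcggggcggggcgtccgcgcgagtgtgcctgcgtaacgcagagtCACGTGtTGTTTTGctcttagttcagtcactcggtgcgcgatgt
Igfbp1: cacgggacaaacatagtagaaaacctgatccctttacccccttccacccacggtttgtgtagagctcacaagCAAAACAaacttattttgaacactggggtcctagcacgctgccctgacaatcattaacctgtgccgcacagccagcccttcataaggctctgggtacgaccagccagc

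In Pck1 the cAMP core was read on the opposite strand at bases 90 to 86 before the start. The Irs1 stretch held the insulin response core on the opposite strand at bases 111 to 105 and at bases 32 to 26, and an E-box at 115 to 110 that overlapped both the first of these cores and a cAMP core at 118 to 114. Irs2 held 1 insulin response core at 37 to 31 and an E-box at 44 to 39, and Igfbp1 held the insulin response core at 108 to 102. RefSeq gave 11 windows of 250 bases before the start for 8 of the 10 genes, since Pcx has 2 and Slc37a4 has 3; Insr and Trib1 are named only. A gene was counted where any of its windows held the letters, and so was each of the 27018 genes with a window. CAAAACA was found in 3 of the 8 (G6pc, Irs1 and Irs2), against 6.38% of all these genes. TGACG was also found in 3 of the 8 (Pck1, Irs1 and Slc37a4), against 19.8% of genes, and CACGTG in 3 of the 8 (Pcx, Irs1 and Irs2), against 6.86%. TATAAA was found in G6pc and Slc37a4, against 14.3% of genes, while GTAAACA, a FOXO core, and TGTTCT, a glucocorticoid receptor core, were found in 0 of the 8, against 3.54% and 18.2%. Both strands were searched for all 6 motifs, and a match of letters is not a measured binding site. Bases outside these windows were not searched, so 0 matches here does not mean that a gene lacks the site.

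Depth was even, from 74699391 to 79154085 reads per library. Libraries differed in the share of reads in the Mup family of urinary proteins, which was 3.36%, 12.2% and 15.8% in CCR1-KO replicates 65, 66 and 67 and between 0.927% and 1.05% in WT, so that replicate 65 stood apart from the other CCR1-KO libraries. Levels are therefore given as CPM, reads scaled to library size with TMM factors, under which the median fold change of all tested genes was 0.00 on the log2 scale; with no such scaling it was -0.30. Ccr1, the targeted gene, had 11, 4 and 14 reads in CCR1-KO livers and 100, 23 and 123 reads in WT livers, a log2 fold change of -2.72 ± 0.76 (SE) with an adjusted p of 0.075 by edgeR's quasi-likelihood test. The groups did not overlap, and every library held some reads of the gene. A gene model of Nnt, which differs between C57BL/6 substrains, had 0 reads in each CCR1-KO liver and 1627, 2640 and 2314 reads in WT livers. The main Nnt row had 10917, 8626 and 9129 reads in CCR1-KO livers and 3820, 2977 and 3331 reads in WT livers (edgeR log2 fold change 1.84 ± 0.15, adjusted p = 0.0029). The 2 rows thus went opposite ways, and genotype and genetic background cannot be told apart.

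Of the 10 genes, 4 rose in CCR1-KO livers (Pck1, Irs2, Foxo1 and Trib1), 0 fell and 6 did not pass the test (edgeR, Benjamini-Hochberg adjusted p under 0.05 over 17729 genes). Among all tested genes 6.44% passed, 2.83% as higher and 3.61% as lower. The median log2 fold change of the 10 genes was 0.52, against 0.00 for all tested genes. Fits without 1 library called 1 to 5 of the 10, Pck1 each time: 2, 1 and 1 without WT replicates 62, 63 and 64, and 5, 2 and 2 without CCR1-KO replicates 65, 66 and 67. Calls over all tested genes moved as well, from 1141 with all 6 livers. They numbered 202, 102 and 163 without WT replicates 62, 63 and 64, and 2419, 331 and 395 without CCR1-KO replicates 65, 66 and 67. The groups did not overlap in 7 of the 10 genes, against 32.6% of all tested genes. In 6 of them every CCR1-KO liver was above every WT liver, against 15.2% of all tested genes, and in 1 of them, Pcx, every CCR1-KO liver was below, against 17.4%. Because the 10 genes were chosen with earlier results known, their counts and median beside those of all genes are descriptions, not an independent result. Beside these values stand changes in markers of other liver cells. Of 10 stellate cell and fibroblast markers 6 fell, and their summed level was 201.5 to 225.8 CPM in CCR1-KO livers and 416.4 to 971.7 CPM in WT livers. That count of 6 was 2, 1 and 2 without WT replicates 62, 63 and 64, and 4, 0 and 1 without CCR1-KO replicates 65, 66 and 67. Of 9 tested bile duct markers 2 fell, and their sum was 53.37 to 63.79 CPM against 139.1 to 214.5 CPM; the count was 2 without CCR1-KO replicate 65 and 1 without any other library. Hepatocyte markers, which define the labelled tissue, were abundant in every library, at a summed 78910 to 97410 CPM in CCR1-KO livers and 82250 to 95400 CPM in WT livers, and 0 of the 9 tested passed by edgeR, with an unadjusted p under 0.05 for 2, against 1 by DESeq2 and 2, both higher, without CCR1-KO replicate 65. The part of other cell types in the 10 genes was not tested. In whole liver, fewer cells of a type and less RNA per cell cannot be told apart.

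**Figure D1:**
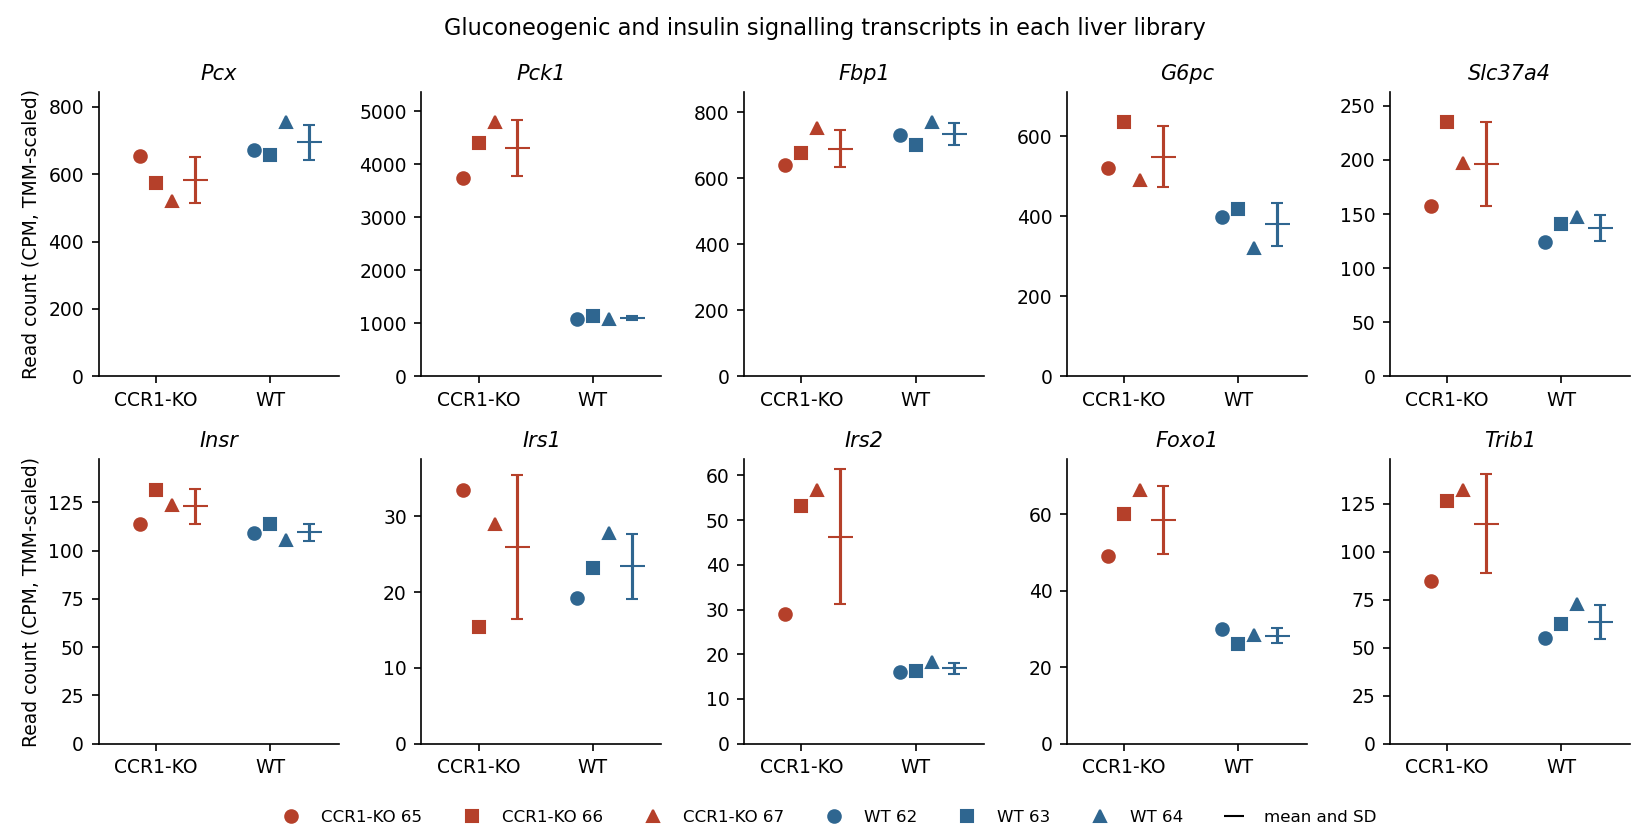
Read counts in CPM (TMM-scaled) of the 10 genes in each of 3 CCR1-KO livers (red) and 3 WT livers (blue), with the mean and SD beside the points; each panel has its own vertical axis, which starts at 0. Pck1 stood at 3749 to 4788 CPM in CCR1-KO livers and 1075 to 1135 CPM in WT livers, while Fbp1, Insr and Irs1 overlapped between the groups.

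Pyruvate carboxylase opens the pathway in the mitochondrion. Pcx (chr19:4510472-4621752, + strand) was at 654.8, 573.4 and 519.8 CPM in CCR1-KO livers and 673.3, 656.6 and 754.0 CPM in WT livers. All 3 CCR1-KO values were below all 3 WT values, although CCR1-KO replicate 65 lay just under the lowest WT liver. The log2 fold change was -0.25 ± 0.14 (SE, n = 3 each) and did not pass edgeR's test (adjusted p = 0.31). The Lrfn4 gene, which overlaps Pcx on the opposite strand, had 60 to 329 reads, few beside the 31070 to 66323 reads of Pcx.

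Phosphoenolpyruvate carboxykinase makes phosphoenolpyruvate from oxaloacetate in the cytosol. Pck1 (chr2:173153048-173159273, + strand) was at 3749, 4397 and 4788 CPM in CCR1-KO livers and 1076, 1135 and 1075 CPM in WT livers. The 3 WT livers lay close together and the lowest CCR1-KO liver, replicate 65, stood far above them. The means were 4311 ± 524.7 CPM in CCR1-KO livers and 1095 ± 34.13 CPM in WT livers (SD, n = 3 each). Pck1 thus rose 3.94-fold (log2 fold change 1.98 ± 0.16, edgeR adjusted p = 0.0024). The call held in all 6 fits that left out 1 library, with log2 fold changes of 1.89 to 2.07, and in all 10 other settings, with 1.66 to 1.99. The difference is visible before any scaling, at 299800, 286868 and 286193 reads in CCR1-KO livers and 88573, 100453 and 94574 reads in WT livers.

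Fructose bisphosphatase removes a phosphate from fructose 1,6-bisphosphate. Fbp1 (chr13:62864753-62888282, - strand) was at 640.2, 677.8 and 751.8 CPM in CCR1-KO livers and 731.2, 700.6 and 769.0 CPM in WT livers. The groups overlapped. Its log2 fold change of -0.09 ± 0.13 did not pass (edgeR adjusted p = 0.72).

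Glucose-6-phosphatase and its transporter work as a pair. G6pc (chr11:101367561-101377903, + strand) was at 521.4, 635.0 and 491.7 CPM in CCR1-KO livers and 399.4, 419.6 and 319.8 CPM in WT livers. Slc37a4 (chr9:44396852-44402966, + strand) was at 157.0, 234.7 and 197.1 CPM in CCR1-KO livers and 124.0, 140.7 and 147.5 CPM in WT livers. For both genes every CCR1-KO liver was above every WT liver, with replicate 67 the lowest for G6pc and replicate 65 the lowest for Slc37a4. Neither passed edgeR's test, at log2 fold changes of 0.53 ± 0.16 (adjusted p = 0.095) for G6pc and 0.51 ± 0.17 (adjusted p = 0.11) for Slc37a4. DESeq2 called both, with adjusted p-values of 0.023 for G6pc and 0.046 for Slc37a4, and edgeR called Slc37a4 once CCR1-KO replicate 65 was left out (adjusted p = 0.029). Slc37a4 shares chromosome 9 with Ccr1, at a distance of 79.6 Mb, and Fbp1 shares chromosome 13 with Nnt, at 56.4 Mb.

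The insulin receptor is the entry of the signal. Insr (chr8:3122061-3279617, - strand) was at 113.7, 131.5 and 123.6 CPM in CCR1-KO livers and 109.3, 113.9 and 105.3 CPM in WT livers. The highest WT liver was just above the lowest CCR1-KO liver. The log2 fold change was 0.17 ± 0.11 and did not pass (edgeR adjusted p = 0.40); its direction turned to -0.14 with no scaling factors.

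The adaptors IRS1 and IRS2 pass the signal from the receptor to PI3-kinase. Irs1 (chr1:82233101-82291416, - strand) was at 33.5, 15.34 and 29.01 CPM in CCR1-KO livers and 19.27, 23.19 and 27.84 CPM in WT livers. CCR1-KO livers held both the highest and the lowest of the 6 values. Its log2 fold change of 0.15 ± 0.28 did not pass (edgeR adjusted p = 0.79), and it turned to -0.14 with no scaling factors and to -0.08 without CCR1-KO replicate 65.

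Irs2 (chr8:10984681-11008458, - strand), the adaptor whose gene insulin represses, was at 29.03, 53.15 and 56.75 CPM in CCR1-KO livers and 16.07, 16.25 and 18.28 CPM in WT livers. Replicates 66 and 67 stood together and replicate 65 between them and the WT livers, and the groups did not overlap. The means were 46.31 ± 15.08 CPM in CCR1-KO livers and 16.87 ± 1.226 CPM in WT livers (SD, n = 3 each). Irs2 rose 2.74-fold (log2 fold change 1.46 ± 0.24, edgeR adjusted p = 0.018). Of the 6 fits without 1 library the call held in 1, that without CCR1-KO replicate 65 (log2 fold change 1.70, adjusted p = 0.00083), and adjusted p-values reached 0.09 in the others; it held in 9 of 10 other settings.

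FOXO1 is the factor that insulin restrains through AKT. Foxo1 (chr3:52268336-52353221, + strand) was at 49.04, 60.12 and 66.42 CPM in CCR1-KO livers and 30.09, 26.17 and 28.52 CPM in WT livers. The groups lay well apart, and replicate 65 was again the lowest CCR1-KO liver. Foxo1 rose 2.07-fold (log2 fold change 1.05 ± 0.14, edgeR adjusted p = 0.011). Read counts before scaling were 3921, 3923 and 3970 in CCR1-KO livers and 2477, 2317 and 2509 in WT livers. It no longer passed when WT replicate 63 was left out (adjusted p = 0.066) or when WT replicate 64 was (adjusted p = 0.057), nor in 1 of 10 other settings.

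TRIB1 hands C/EBPα to the COP1 ligase. Trib1 (chr15:59648350-59657099, + strand) was at 84.97, 126.7 and 132.2 CPM in CCR1-KO livers and 55.01, 62.51 and 72.57 CPM in WT livers. Replicate 65 stood nearer to the highest WT liver than to the other CCR1-KO livers. Trib1 rose 1.81-fold (log2 fold change 0.86 ± 0.19, edgeR adjusted p = 0.043), the call nearest to the threshold among the 4. It held in 1 of the 6 fits without 1 library, that without CCR1-KO replicate 65 (adjusted p = 0.0074), and in 4 of 10 other settings; with no scaling factors the log2 fold change was 0.51 (adjusted p = 0.12).

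**Figure D2:**
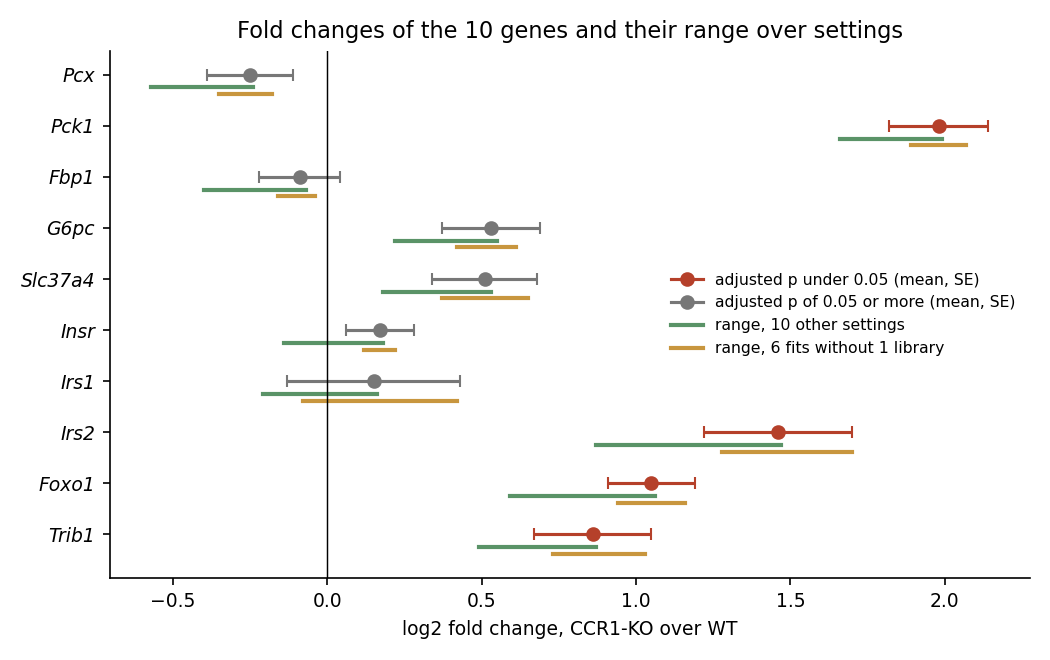
Log2 fold changes of the 10 genes, CCR1-KO over WT, with SE (points and bars), and below each the range over 10 other settings (green) and over 6 fits without 1 library (yellow). The ranges of Pck1, Irs2, Foxo1, Trib1, G6pc and Slc37a4 stayed above 0, those of Pcx and Fbp1 below 0, and those of Insr and Irs1 crossed it.

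Levels of different genes are compared in FPKM, which divides by gene length, as deposited and without TMM. In CCR1-KO livers the order by mean was Pck1, Fbp1, G6pc, Pcx, Slc37a4, Trib1, Insr, Irs2, Foxo1 and Irs1; in WT livers it was Fbp1, Pck1, G6pc, Pcx, Slc37a4, Trib1, Insr, Foxo1, Irs2 and Irs1. Pck1 averaged 1025 ± 28.26 FPKM in CCR1-KO livers and 324.9 ± 18.14 FPKM in WT livers (SD, n = 3 each), which placed it 74th among all 27912 genes in CCR1-KO livers and 130th in WT livers. Fbp1, at 332.1 ± 26.61 FPKM in CCR1-KO livers and 438.7 ± 36.59 FPKM in WT livers, was below Pck1 in every CCR1-KO liver and above it in every WT liver. G6pc averaged 188.0 ± 36.68 FPKM in CCR1-KO livers and 159.4 ± 17.98 FPKM in WT livers. Its neighbour Pcx was at 102.4 ± 27.86 FPKM in CCR1-KO livers, where the 2 genes did not overlap, and at 148.9 ± 17.36 FPKM in WT livers, where they did.

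The signalling genes were far less abundant. Trib1 averaged 14.81 ± 1.558 FPKM in CCR1-KO livers and 10.36 ± 1.921 FPKM in WT livers, and Insr 7.347 ± 0.8108 FPKM and 8.097 ± 0.3691 FPKM. Foxo1 was at 5.493 ± 0.04163 FPKM in CCR1-KO livers and 3.31 ± 0.2193 FPKM in WT livers. In WT livers the values of Foxo1, Irs2 and Irs1 overlapped, neighbour by neighbour, with Irs2 at 2.72 ± 0.3219 FPKM and Irs1 at 2.62 ± 0.601 FPKM. In CCR1-KO livers Irs2, at 5.853 ± 1.241 FPKM, overlapped with Insr and Foxo1, and Irs1 was alone at the bottom with 2.38 ± 1.099 FPKM.

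**Figure D3:**
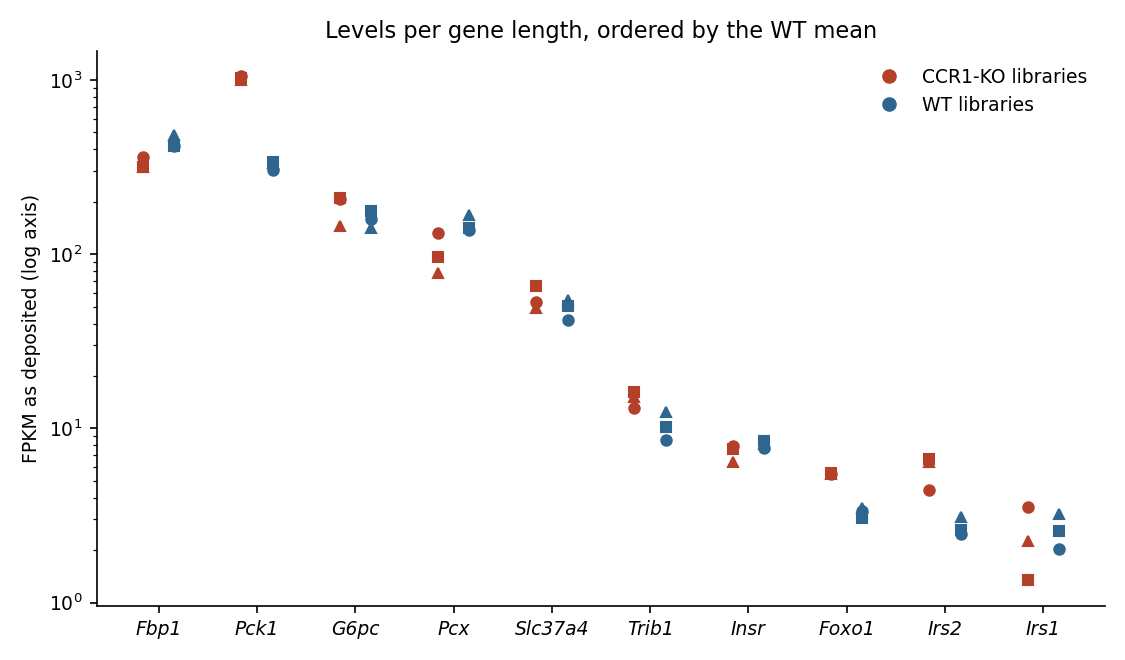
FPKM as deposited (log axis) of the 10 genes, ordered by the WT mean, with 1 point per liver (CCR1-KO red, WT blue). Pck1 lay above Fbp1 in CCR1-KO livers and below it in WT livers, and Foxo1, Irs2 and Irs1 formed the low end in WT livers.

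Ratios of 2 transcripts within a library do not depend on how libraries are scaled. They were chosen after the values were seen and are given as descriptions. Pck1 over Fbp1 was 2.907, 3.22 and 3.161 in CCR1-KO livers and 0.7304, 0.8039 and 0.694 in WT livers. Pck1 over Pcx was 7.937, 10.63 and 12.77 in CCR1-KO livers and 2.215, 2.395 and 1.977 in WT livers. Neither ratio overlapped between the groups, so Pck1 did not change in proportion to Fbp1 or Pcx. G6pc over Slc37a4, in contrast, overlapped between the groups, at 3.931, 3.202 and 2.954 in CCR1-KO livers and 3.813, 3.529 and 2.567 in WT livers. Irs2 over Irs1 was 1.255, 5.007 and 2.828 in CCR1-KO livers and 1.206, 1.016 and 0.9506 in WT livers, so that replicate 65 was close to the highest WT liver.

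Around the 10 genes, 7 lists from general knowledge cover 147 other genes of the pathways. Of 145 tested, 9 rose, 8 fell and 128 did not pass, with a median log2 fold change of 0.04. Beside this count and the list counts below, 2.83% of all tested genes passed as higher and 3.61% as lower. The lists were chosen with earlier results known, so these counts are descriptions. The balance of higher and lower calls moved with the scaling, since with no scaling factors 4 of the 145 rose and 14 fell. Of the 17 calls, that of Igfbp1 held in all 6 fits without 1 library, 2 calls, that of Fasn among them, in 5, that of Acaca in 4, those of Klf15, Mlxipl and Tat in 3, that of Acly in 2 and the other 9 in 1, which was the fit without CCR1-KO replicate 65 except for Ide, whose call held without CCR1-KO replicate 67. With no scaling factors Got1, Foxo3, Crem, Txnip and Mlxipl no longer passed (adjusted p = 0.075, 0.077, 0.42, 0.07 and 0.072). The deposited table also assigns genes to KEGG pathways. Without the 10 genes, 3 rose and 11 fell of 120 tested in insulin signalling. In glycolysis and gluconeogenesis 1 rose and 6 fell of 56. Glucagon signalling gave 4 higher and 4 lower of 86, and insulin resistance 4 higher and 3 lower of 99. Median log2 fold changes were -0.04, -0.28, -0.01 and -0.05 in that order. Some genes stand in several of these sets and in the lists. These counts and those below are by edgeR with TMM.

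Of 25 genes of precursor supply (lactate, amino acid and glycerol entry), 2 rose and 0 fell, at a median of -0.15. Tat, the first enzyme of tyrosine breakdown, was at 985.7, 2143 and 1826 CPM in CCR1-KO livers and 470.2, 477.3 and 472.1 CPM in WT livers. The groups did not overlap, although replicate 65 was well below the other CCR1-KO livers, and Tat rose 3.49-fold (log2 fold change 1.80 ± 0.27, adjusted p = 0.015). Got1, a cytosolic aspartate aminotransferase, rose by a log2 fold change of 1.06 ± 0.25 (adjusted p = 0.049). Pck2, the mitochondrial isozyme of Pck1, averaged 2.60 ± 0.397 CPM in CCR1-KO livers and 5.523 ± 1.625 CPM in WT livers (adjusted p = 0.052). Pdk4, a kinase that shuts pyruvate dehydrogenase, was at 365.4, 91.8 and 179.0 CPM in CCR1-KO livers and 53.88, 133.9 and 113.6 CPM in WT livers, overlapping, and did not pass (adjusted p = 0.24).

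Among 35 tested factors that control gluconeogenic transcription, 3 rose and 1 fell, at a median of 0.30, which was -0.02 with no scaling factors. Without CCR1-KO replicate 65, 9 rose and 1 fell, and DESeq2 called 10 higher and 2 lower. Over all genes these settings called 2419 and 2347, against 1141 by edgeR with all 6 livers. Klf15, a glucocorticoid-induced factor of amino acid breakdown, was at 123.6, 161.4 and 175.0 CPM in CCR1-KO livers and 69.57, 72.34 and 59.15 CPM in WT livers. These values did not overlap, and Klf15 rose 2.29-fold (log2 fold change 1.19 ± 0.16, adjusted p = 0.011). Foxo3, a relative of Foxo1, rose by 0.92 ± 0.22 and Crem, a cAMP-responsive factor, by 0.59 ± 0.14, while Prkaca, a catalytic subunit of protein kinase A, fell by 0.46 ± 0.11 on the log2 scale (adjusted p = 0.049 for each of the 3). Foxo1 over Foxo3 overlapped between the groups as a ratio of FPKM, at 1.044, 0.8088 and 0.8191 in CCR1-KO livers and 0.7179, 0.7694 and 0.9067 in WT livers. Ppargc1a, the coactivator PGC-1α, was at 6.528, 7.433 and 6.592 CPM in CCR1-KO livers and 8.941, 8.246 and 5.639 CPM in WT livers (adjusted p = 0.70). The glucagon receptor Gcgr was at 331.4, 316.2 and 278.9 CPM in CCR1-KO livers and 210.2, 245.0 and 222.5 CPM in WT livers, without overlap, and did not pass (adjusted p = 0.080).

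At the level of the receptor, 0 of 24 tested receptors, adaptors and inhibitors rose and 1 fell. Ide, the insulin-degrading enzyme, was at 66.17, 70.15 and 86.1 CPM in CCR1-KO livers and 103.6, 117.3 and 121.6 CPM in WT livers (log2 fold change -0.62 ± 0.14, adjusted p = 0.042). Grb14, an inhibitor of the receptor, averaged 48.36 ± 5.223 CPM in CCR1-KO livers and 41.12 ± 2.512 CPM in WT livers (adjusted p = 0.28). Socs3, which blocks IRS proteins, was at 8.942, 20.17 and 9.804 CPM in CCR1-KO livers and 5.868, 5.851 and 30.65 CPM in WT livers; WT replicate 64 alone was high.

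Of 31 genes of PI3-kinase, AKT and the kinases below it, 0 passed edgeR's test at the adjusted threshold, and 5 had an unadjusted p under 0.05. DESeq2 called 2 of the 31, 1 in each direction, and limma on log2(FPKM + 0.5) called 1 of 27 tested, as lower. Without CCR1-KO replicate 65, 1 rose and 4 fell by edgeR; without any other library the count stayed at 0. The 4 of smallest p were Trib3 (log2 fold change -0.83 ± 0.21, adjusted p = 0.058), Rictor (0.91 ± 0.27, adjusted p = 0.084), Pik3ca (0.34 ± 0.11, adjusted p = 0.11) and Pik3r3 (-0.77 ± 0.29, adjusted p = 0.15). Trib3 encodes a relative of TRIB1 that binds AKT. Trib1 over Trib3 in FPKM was 8.632, 13.72 and 11.45 in CCR1-KO livers and 3.036, 2.959 and 4.866 in WT livers, without overlap. Akt2, the main AKT isoform of hepatic insulin action, averaged 89.06 ± 8.891 CPM in CCR1-KO livers and 77.9 ± 6.819 CPM in WT livers (adjusted p = 0.40).

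Genes that insulin represses in hepatocytes gave 3 higher and 0 lower of 13, at a median of 0.10, which was -0.24 with no scaling factors. Igfbp1, a secreted binder of insulin-like growth factors, was at 391.8, 606.4 and 411.5 CPM in CCR1-KO livers and 38.66, 60.21 and 40.78 CPM in WT livers. The lowest CCR1-KO liver stood several-fold above the highest WT liver, and Igfbp1 rose 10.1-fold (log2 fold change 3.34 ± 0.25, adjusted p = 0.0022). That call held in all 6 fits without 1 library and all 10 other settings. Txnip, which limits glucose uptake, rose by 0.98 ± 0.17 (adjusted p = 0.023), and the third was Klf15, which stands in 2 lists.

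Genes that insulin induces gave 1 higher and 5 lower of 14, at a median of -0.76. The lower calls numbered 2, 1 and 0 without WT replicates 62, 63 and 64, and 7, 2 and 4 without CCR1-KO replicates 65, 66 and 67. The 5 that fell belong to fatty acid synthesis. Fasn, the fatty acid synthase, was at 90.03, 81.47 and 65.3 CPM in CCR1-KO livers and 195.6, 155.9 and 189.0 CPM in WT livers, and fell by 1.19 ± 0.16 on the log2 scale (adjusted p = 0.011). Acaca, which makes malonyl-CoA, fell by 1.04 ± 0.14 (adjusted p = 0.012) and Elovl6, an elongase, by 1.10 ± 0.23 (adjusted p = 0.034). Srebf1, the gene of the lipogenic factor SREBP-1c, fell by 0.80 ± 0.17 and Acly, which makes cytosolic acetyl-CoA, by 0.66 ± 0.14 (adjusted p = 0.037 for each). The directions of these 5 genes were the same with and without TMM.

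In the list of TRIB1 and COP1 partners and substrates, 1 of 10 rose and 1 fell. Mlxipl, the gene of the glucose-sensing factor ChREBP, was at 419.6, 424.3 and 413.8 CPM in CCR1-KO livers and 264.2, 201.1 and 195.1 CPM in WT livers. CCR1-KO livers lay close together, and Mlxipl rose by 0.93 ± 0.15 (adjusted p = 0.018). Det1, which joins COP1 in a ligase complex, fell by 0.85 ± 0.19 on the log2 scale (adjusted p = 0.043).

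**Figure D4:**
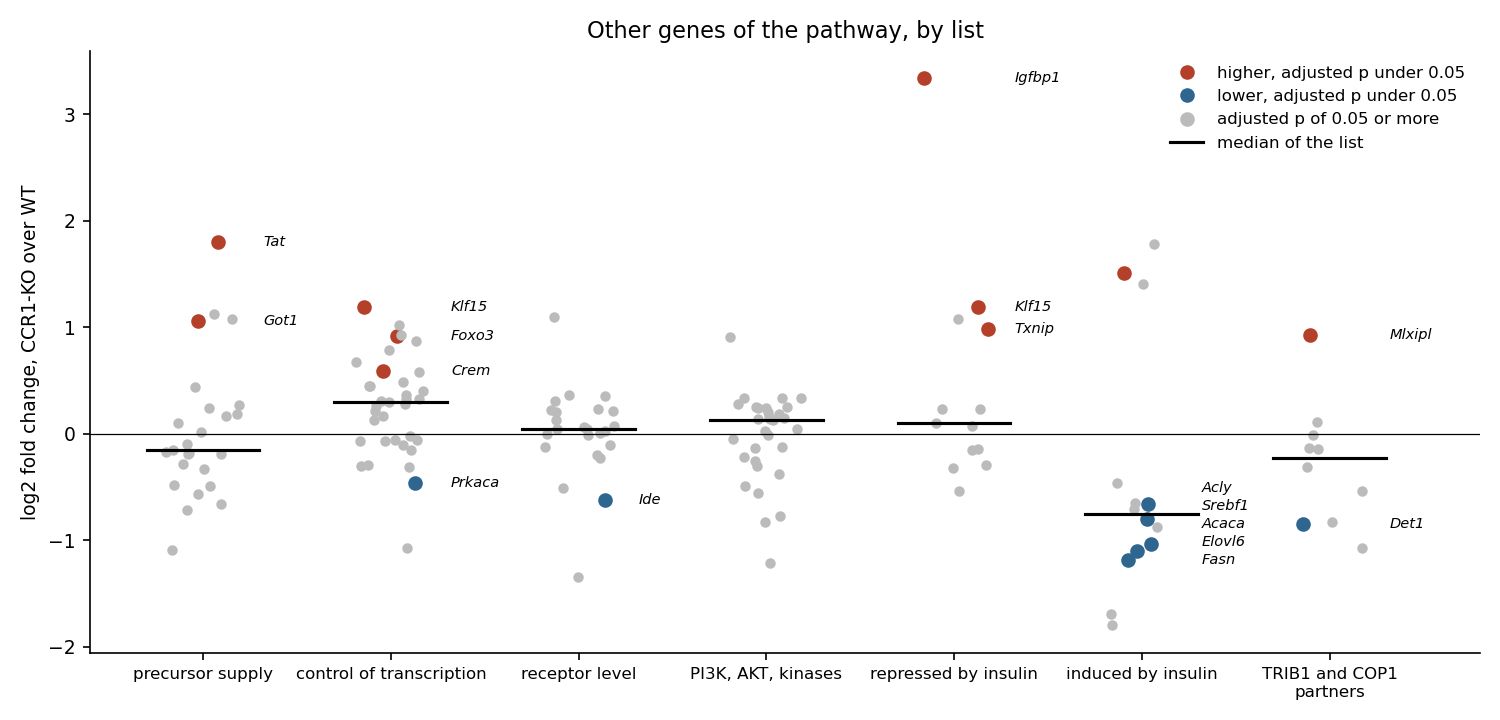
Log2 fold changes, CCR1-KO over WT, of the tested genes of 7 lists around the 10 genes; red points rose and blue points fell (adjusted p under 0.05), grey points did not pass, and black lines are list medians. Igfbp1 at 3.34 was the highest of the genes that passed, and 5 insulin-induced genes lay between -0.66 and -1.19.

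The 3 genes whose log2 CPM over the 6 livers followed Pck1 most closely, among 10305 genes with a mean of at least 1 FPKM, were Ppp1r3g (Pearson r = 0.998), Itih1 (r = 0.997) and Cebpd (r = 0.996). These are descriptions: 261 genes had r above 0.95, and the 6 points fall into the 2 groups. Ppp1r3g, which encodes a subunit that targets protein phosphatase 1 to glycogen, had 635, 1867 and 1570 reads in CCR1-KO livers and 3, 4 and 3 reads in WT livers. Cebpd, a C/EBP factor, was at 15.93, 21.55 and 19.93 CPM in CCR1-KO livers and 5.588, 5.682 and 5.616 CPM in WT livers. Itih1, a plasma protein gene of hepatocytes, was at 621.6, 639.4 and 658.5 CPM in CCR1-KO livers and 479.8, 498.3 and 496.1 CPM in WT livers and did not pass (adjusted p = 0.097).

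Hepatic Pck1 varies with feeding and the hour, so transcripts of the daily clock were read beside it. Arntl, a core clock activator, was at 16.77, 2.973 and 1.84 CPM in CCR1-KO livers and 8.941, 9.059 and 7.298 CPM in WT livers. Dbp, an output of the clock, was at 12.07, 73.98 and 85.23 CPM in CCR1-KO livers and 42.0, 44.76 and 38.99 CPM in WT livers. For both genes the CCR1-KO livers lay on either side of the WT livers, with replicate 65 opposite to replicates 66 and 67. Nr1d1, a clock repressor, was at 60.86, 102.5 and 54.16 CPM in CCR1-KO livers and 76.52, 94.27 and 81.95 CPM in WT livers, and Per2 at 27.54, 37.64 and 78.54 CPM against 22.97, 17.71 and 19.91 CPM. None of these 4 passed (adjusted p = 0.88 for Arntl, 0.68 for Dbp, 0.62 for Nr1d1 and 0.080 for Per2). The count for all 18 time-of-day transcripts turned on CCR1-KO replicate 65: without it 7 rose and 2 fell, whereas with all 6 livers, or without any other library, 1 passed, and DESeq2 called 3 with all 6. The 1 was Per1, a clock gene that glucocorticoids and cAMP also induce, named after its value was seen. Over all genes, edgeR called 1141 with all 6 livers and 2419 without CCR1-KO replicate 65. Per1 was at 42.57, 55.85 and 48.27 CPM in CCR1-KO livers and 14.27, 12.07 and 11.3 CPM in WT livers (log2 fold change 1.96 ± 0.15, adjusted p = 0.0022). The part of sampling time or feeding in the differences of Pck1, Irs2 and Igfbp1 was not tested.

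**Figure D5:**
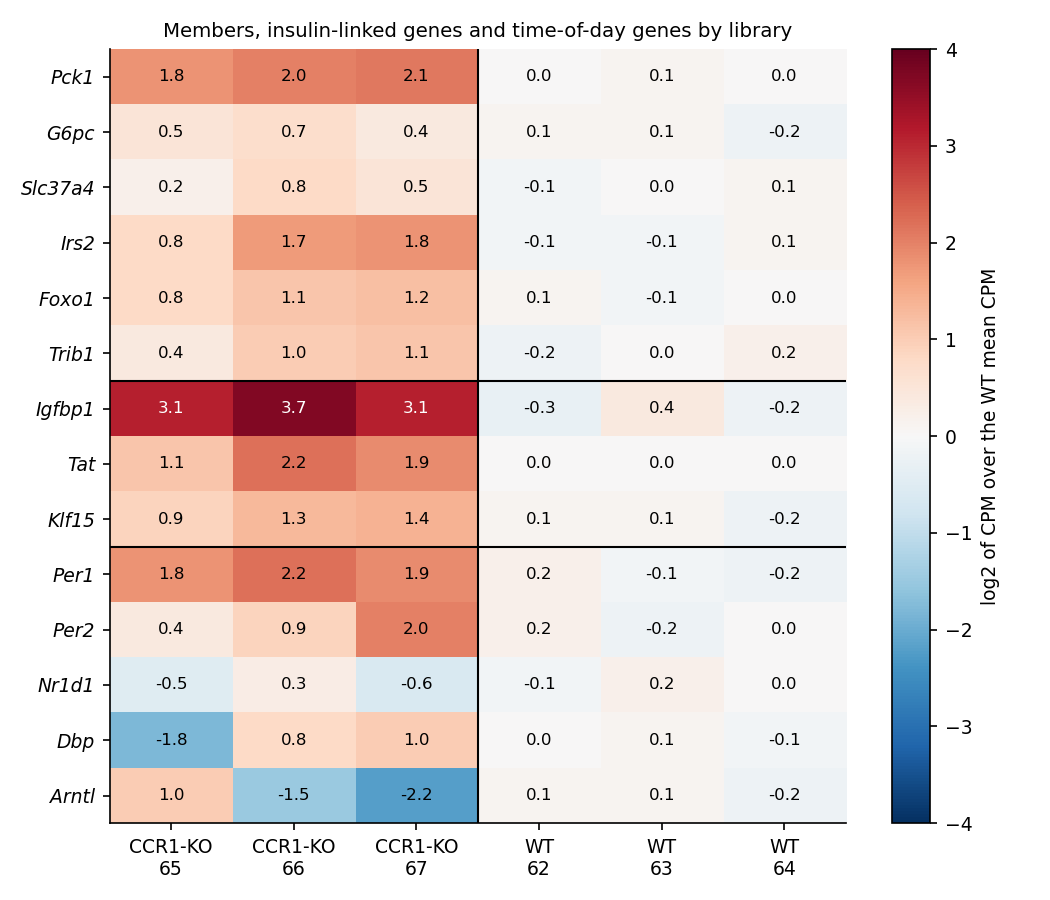
Log2 of CPM over the WT mean CPM in each liver (red above the WT mean, blue below). Shown are 6 of the 10 genes, 3 genes titled insulin-linked (Igfbp1, Tat and Klf15), all of which rose, and 5 time-of-day genes. The 6 are those in which every CCR1-KO liver was above every WT liver. Pcx, Fbp1, Insr, Irs1 and the insulin-induced genes that fell are not shown. Pck1 stood at 1.8, 2.0 and 2.1 in the 3 CCR1-KO livers, whereas Arntl stood at 1.0, -1.5 and -2.2 and Dbp at -1.8, 0.8 and 1.0.

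Gluconeogenesis is strongest in hepatocytes near the portal vein, and markers of these cells were mixed. Of 12 periportal markers 3 rose and 2 fell, and their summed level was 6779 to 10540 CPM in CCR1-KO livers and 5893 to 5982 CPM in WT livers. With 1 library left out, 5 rose without CCR1-KO replicate 65 and 0 without any other. The 3 called with all 6 livers were Cps1, Ass1 and Asl, enzymes of the urea cycle, with log2 fold changes of 1.37 ± 0.29, 1.09 ± 0.22 and 1.04 ± 0.19 (adjusted p = 0.036, 0.031 and 0.023). Aldh1b1 and Hsd17b13 fell by 1.34 ± 0.15 and 0.95 ± 0.12 on the log2 scale (adjusted p = 0.0085 and 0.010). Of 12 pericentral markers 0 rose and 1, Rhbg, fell (3 and 2 without CCR1-KO replicate 65, 0 and 0 without any other library), with summed levels of 12730 to 18190 CPM in CCR1-KO livers and 8767 to 11240 CPM in WT livers. Such sums weigh the most abundant markers most. The median log2 fold change of the 12 was -0.28. Every CCR1-KO liver was below every WT liver for 5 of them and above for 4, against 17.4% and 15.2% of all tested genes. The zonal genes named here were chosen after their values were seen. Macrophage and Kupffer cell markers, for the cells in which CCR1 is best known, gave 0 of 10 past the edgeR threshold, with an unadjusted p under 0.05 for 1, while DESeq2 called 1 as lower. Without CCR1-KO replicate 65, 4 of the 10 fell, at a median of -0.91. Their sums were 381.1, 164.6 and 174.3 CPM in CCR1-KO livers and 296.5, 351.9 and 245.7 CPM in WT livers; replicate 65 was the highest and replicates 66 and 67 the lowest of the 6.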

How the data were processed

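Liver RNA was sequenced after poly(A) selection and dUTP marking of strand, per the labels' protocols; no source used here says if counting was stranded. The submitters' processing notes list DESeq2, edgeR, StringTie 2.1.6, HISAT2 2.2.1 and cutadapt 1.9 without their roles. Per the file headers, the deposited table holds whole-number read counts and FPKM for every gene in each library. The notes name a human build, yet the gene IDs are mouse IDs: GENCODE M21 (GRCm38) holds 27839 of them, 90% with identical coordinates, as for 9 of the 10 genes (not Slc37a4).

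Titles and genotypes gave the groups. Counts were tested with edgeR 4.0.16 (R 4.3.3; filterByExpr with minimum count 10 and total 15, TMM, glmQLFit, glmQLFTest, Benjamini-Hochberg over 17729 genes, threshold 0.05). SE was computed as the size of the log2 fold change divided by the root of F. The script was tested on simulated counts. Alternatives were DESeq2 1.42.0, RLE, upper-quartile or no scaling, removal of Mup genes, no filter, limma 3.58.1 on log2(FPKM + 0.5, 0.1 or 1), which understates changes of low genes, and leaving out each library. Counts of replicates differed beyond sampling noise in every pair. The labels number the replicates without saying that they are separate animals. The tests set the difference between the groups against the spread between these samples, which may not be that between animals. The 10 genes, the lists and the rule for named genes (all 10; of each list up to 5 past the threshold or else the 4 of smallest p; a set of known regulators) were chosen with earlier results of these data known. Some genes of the lists are counted but not reported by name here. Promoter sequences are from RefSeq (GRCm38.p6).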

Additional observations from a re-analysis of the deposited data

How the results depend on the processing

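All 4 calls among the 10 genes held with RLE or upper-quartile factors and without Mup genes. The number called was 6 of 10 by DESeq2, 3 with no scaling, no filter or filtered limma, and 1, Pck1, by limma with no filter. Over all genes 1141 calls became 2347 by DESeq2, 735 with no filter and 239 by limma with no filter; the 17 pathway calls became 35, 11 and 6. Without 1 library the counts ran from 1 to 5 of the 10 genes, from 102 to 2419 genes and from 2 to 33 pathway genes. All genes called were 202, 102 and 163 without WT replicates 62, 63 and 64, and 2419, 331 and 395 without CCR1-KO replicates 65, 66 and 67; pathway genes were 5, 2 and 3, and 33, 6 and 10. Insr turned to -0.14 with no scaling and under limma at 0.5 and 0.1 (-0.13 at 1). Irs1 turned to -0.14 with no scaling and under limma at 1, to -0.17 at 0.5, to -0.21 at 0.1, and to -0.08 without CCR1-KO replicate 65 (its range over these fits ended at 0.42); the cause was not tested. Calls of all genes were higher in 43.9% of cases with TMM, in 20.4% with no scaling and in 17% by limma at 0.5; pathway calls in 52.9%, 22.2% and 20%, and in 40% with upper-quartile factors. No paired analysis was possible because the replicate numbers do not recur between the groups. With 3 replicates a group, the biological coefficient of variation common to all tested genes was 0.302. The part of depth in these comparisons was not tested.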
